A study of Homo sapiens with 44 samples.

Results

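The glucocorticoid receptor gene NR3C1 and 7 genes that glucocorticoids are known to induce (KLF9, TSC22D3, SCNN1A, SGK1, PER1, DUSP1 and ZBTB16) were followed in castration-resistant xenograft tumors of VCaP, a human prostate cancer cell line. The 8 genes were chosen by symbol. All 8 stood in the count table, passed the filter on low counts and had a mean level above the minimum of 0.5 CPM (counts scaled to library size), out of 13520 genes tested and 23368 genes listed.

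Of the genes induced by glucocorticoids, KLF9 and SCNN1A were higher under both antiandrogens, and TSC22D3 passed the test under ARN-509 alone. The SCNN1A call under ARN-509 was lost in 17 of 43 fits that each left out 1 tumor. NR3C1 itself was 1.54-fold higher under ARN-509, an increase that the enzalutamide arm did not show at the threshold. SGK1, PER1 and DUSP1 did not pass the test in either arm. ZBTB16 was lower under ARN-509, a call lost in 22 of 43 fits that each left out 1 tumor. Its log2 fold change was -0.53 there and -0.55 under enzalutamide, which did not pass. Between tumors of the same arm, KLF9 and SCNN1A rose with the level of NR3C1, while the other 5 genes had no slope past the threshold. Of all genes, 14.1% had a slope above 0 and 15.2% one below 0 at that threshold. Over the 28 drug-treated tumors alone neither KLF9 nor SCNN1A passed, while ZBTB16 did.

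RNA was sequenced from tumors of 3 arms. Mice in the enzalutamide arm received 20 mg/kg of enzalutamide per day (14 tumors, of which 13 were used), those in the ARN-509 arm 20 mg/kg of ARN-509 per day (15 tumors), and those in the control arm vehicle (15 tumors). All doses were given by daily gavage, and tumors were taken after 4 weeks of treatment. The tumors of all 3 arms came from VCaP cells of 1 passage grown in castrated HSD:Athymic Nude-Foxn1nu mice, a host that lacks a thymus. Treatment started once serum PSA had returned to its level before castration, and arms were balanced on PSA, body weight, cage and castration week. Enzalutamide and ARN-509 (apalutamide) are antiandrogens, so every arm lacked testicular androgen and the drug arms had androgen signalling blocked in addition. The labels give no glucocorticoid treatment, and serum glucocorticoid was not measured in the data used here. VCaP is 1 cell line, so tumors are replicates of that line and not of patients.

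NR3C1 encodes the receptor for cortisol and, in mice, corticosterone. Without hormone the receptor is held in the cytoplasm by HSP90 chaperones. With hormone it enters the nucleus, binds DNA as a dimer and turns on target genes. Many of its target genes in the prostate are known to respond to androgens as well. In prostate cancer, a raised glucocorticoid receptor has been described as a way for tumors to keep part of the androgen-driven program under antiandrogens.

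The consensus glucocorticoid response element is made of the 6-base arm AGAACA, 3 free bases and the reverse complement of that arm. It was searched on both strands in RefSeq promoter windows of build GRCh38.p14, which run from 250 bases before to 50 bases after each annotated start. Windows were found for 6 of the 8 genes, 17 windows in all, and SCNN1A and ZBTB16 had no entry in the table. None of the 17 windows held the full element, and among all 35116 windows 1 did (0.00285%). The arm alone stood in 1 of the 17 windows (5.88%), against 5192 of all windows (14.8%). The 2 windows shown are of SGK1, the gene whose window held the arm, and of KLF9, whose level differed between the drug and vehicle arms. The SGK1 window lies on chr6:134177842-134178111 and the KLF9 window on chr9:70414638-70414907, both on the minus strand, and each is printed from 250 bases before to 20 bases after the start. Capitals mark the arm.
SGK1: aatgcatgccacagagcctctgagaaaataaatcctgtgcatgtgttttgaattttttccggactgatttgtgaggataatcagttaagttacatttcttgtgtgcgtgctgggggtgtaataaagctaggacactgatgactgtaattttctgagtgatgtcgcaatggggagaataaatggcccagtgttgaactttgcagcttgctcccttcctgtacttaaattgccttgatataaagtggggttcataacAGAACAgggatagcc
KLF9: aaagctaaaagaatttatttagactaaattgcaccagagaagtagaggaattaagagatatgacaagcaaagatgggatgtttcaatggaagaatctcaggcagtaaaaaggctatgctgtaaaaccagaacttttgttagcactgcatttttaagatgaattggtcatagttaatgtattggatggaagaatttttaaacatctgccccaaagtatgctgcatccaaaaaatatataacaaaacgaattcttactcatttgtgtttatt
A match describes the letters of these windows only. Only exact matches were searched, so the absence of a match says nothing of inexact elements in the windows or of elements further away.

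Per tumor, 4.72 M to 16.9 M counts were assigned to genes in the enzalutamide arm (median 8.62 M), 3.38 M to 30.1 M in the ARN-509 arm (median 7.49 M) and 4.19 M to 25.8 M in the vehicle arm (median 5.71 M). Enzalutamide replicate 4 held 80142 counts, and its profile had a correlation of 0.448 with its own arm, against at least 0.890 for every other tumor. It was left out of the levels and main tests, and entered only the alternative fit with all 44 libraries. The 10 VCaP and prostate epithelial markers that were read were all present, and their summed level ran from 7242 to 9547 CPM in enzalutamide, 6512 to 8147 CPM in ARN-509 and 6986 to 9773 CPM in vehicle tumors. Of 12 fibroblast and smooth muscle markers 7 had a median under 0.5 CPM, as had 5 of 7 endothelial, 6 of 7 leukocyte and 2 of 4 adipocyte markers. The tumors grew in mice, so host cells carry mouse genes, while the counts are of human gene symbols on hg19. These markers therefore do not measure the amount of host cells. In bulk tumors, fewer cells of a type and less RNA per cell cannot be told apart.

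**Figure D1:**
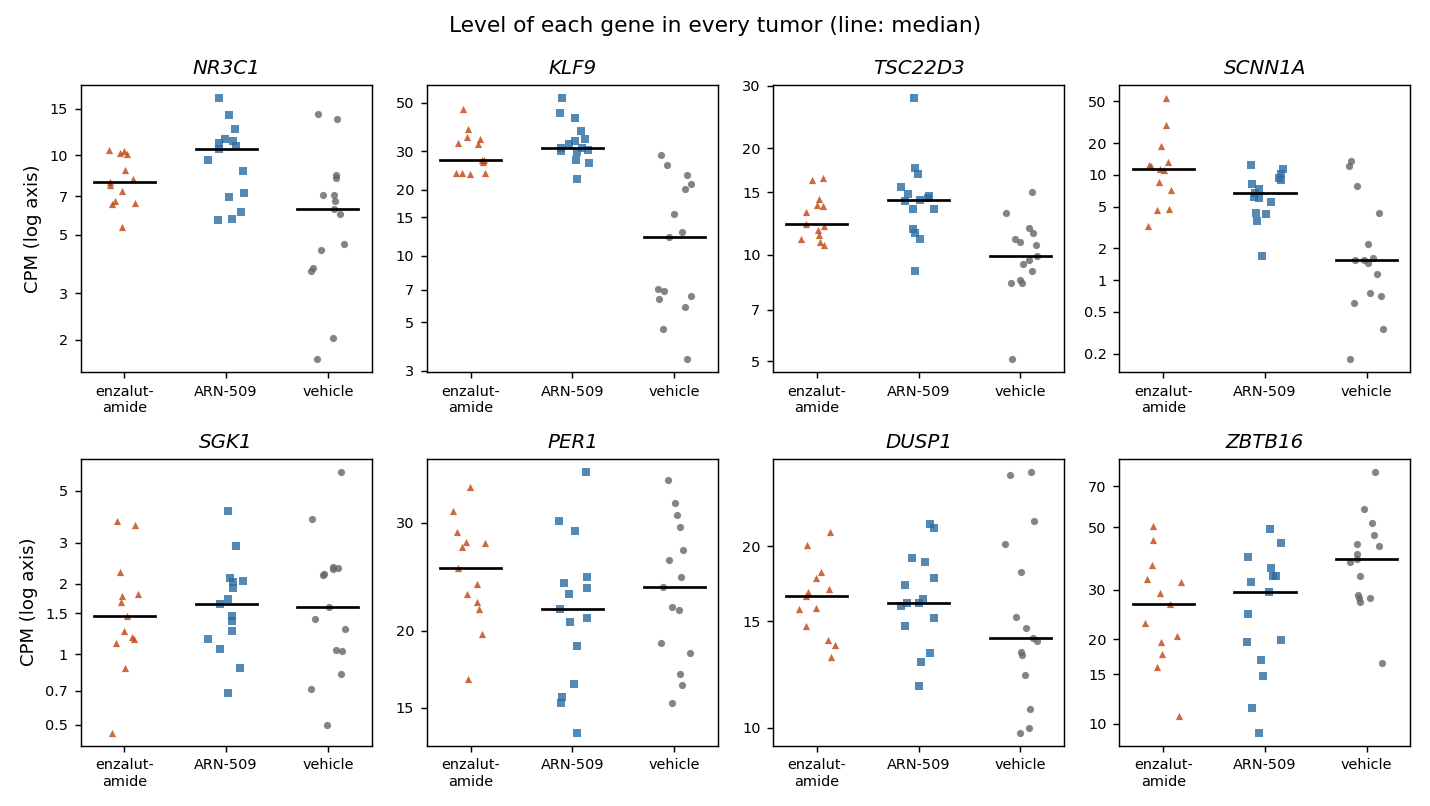
Level of the 8 genes in each of 43 tumors, in CPM on a log axis that differs between panels (triangles, 13 enzalutamide tumors; squares, 15 ARN-509 tumors; circles, 15 vehicle tumors; lines, medians). KLF9 in all 28 drug-treated tumors lay above the vehicle median of 12.2 CPM, while SGK1, PER1 and DUSP1 overlapped between the arms.

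The receptor came first. NR3C1 ranged from 5.35 CPM through a median of 7.91 CPM to 10.5 CPM in enzalutamide tumors, from 5.66 through 10.5 to 16.5 CPM in ARN-509 tumors, and from 1.69 through 6.25 to 14.4 CPM in vehicle tumors. The arms overlapped: only 1 ARN-509 tumor exceeded the highest vehicle tumor, and no enzalutamide tumor did. The mean was 8.17 ± 1.70 CPM under enzalutamide (SD, n = 13), 9.90 ± 3.20 CPM under ARN-509 and 6.53 ± 3.67 CPM under vehicle (SD, n = 15 each). With edgeR's quasi-likelihood test and Benjamini-Hochberg adjustment over all genes, the log2 fold change was 0.62 ± 0.20 (SE) for ARN-509 against vehicle, with an adjusted p of 0.0155 (0.0875 with enzalutamide replicate 4 in the fit). For enzalutamide against vehicle it was 0.33 ± 0.21 with an adjusted p of 0.341. The 2 drugs did not differ at the threshold, at -0.30 ± 0.20 for enzalutamide against ARN-509 and an adjusted p of 0.262, with a 95% interval of -0.69 to 0.10. The largest spread was among vehicle tumors, where replicates 7 and 8 held 1.69 and 2.03 CPM and replicates 10 and 12 held 13.7 and 14.4 CPM. On the log2 scale the SD of NR3C1 was 0.30 under enzalutamide, 0.47 under ARN-509 and 0.83 under vehicle, where 2.63% of genes had a larger one.

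Among the 8 genes, 2 were higher and 0 lower in enzalutamide than in vehicle tumors at an adjusted p under 0.05, where 5.10% of all genes were higher and 5.67% lower. At an unadjusted p under 0.05 there were 3 higher and 1 lower, and counts adjusted in DESeq2 and limma were 2 and 0, and 3 and 1. Under ARN-509, 4 of the 8 were higher and 1 was lower than in vehicle tumors, against 14.7% and 16.1% of all genes. Between the drugs 1 of the 8 was higher and 0 lower under enzalutamide, against 12.2% and 14.6% of all genes, also with 1 and 0 at an unadjusted p, with 0 and 0 in DESeq2 and with 1 and 0 in limma. Both drug comparisons share the vehicle tumors, so their values for a gene are not independent.

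**Figure D2:**
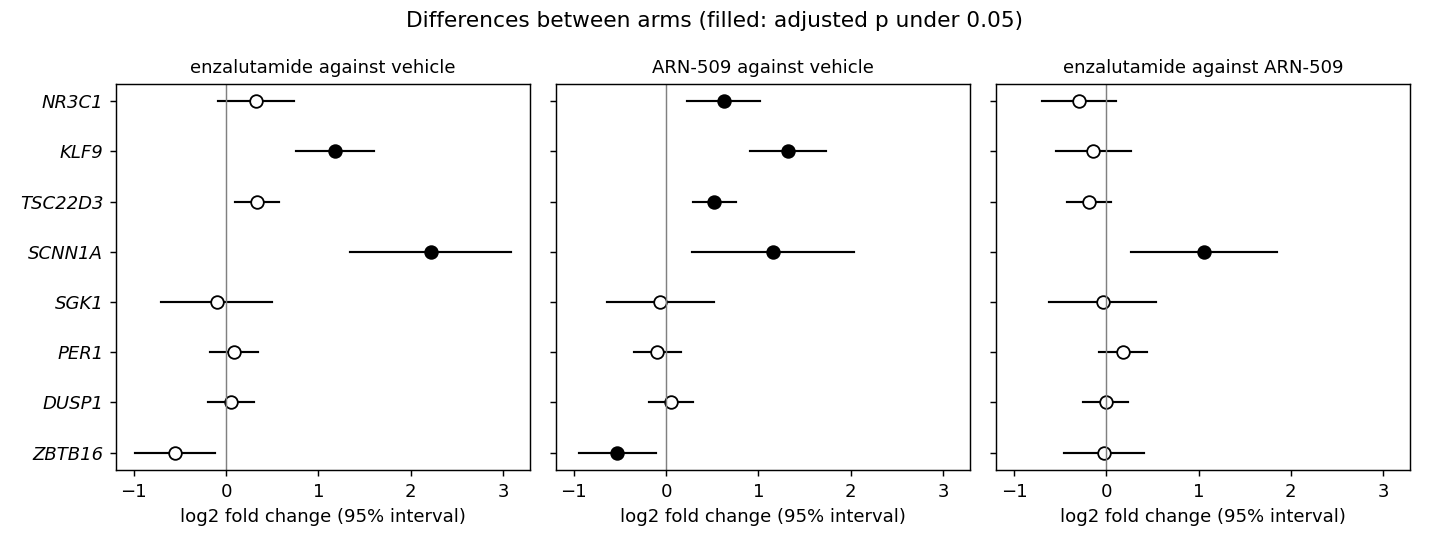
Log2 fold changes of the 8 genes (points) with 95% intervals (lines) for enzalutamide against vehicle, ARN-509 against vehicle and enzalutamide against ARN-509, from 43 tumors. Filled points passed an adjusted p of 0.05: 2, 5 and 1 of the 8 genes.

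The 2 transcription factors KLF9 and ZBTB16 differed in direction. KLF9, a Krüppel-like repressor and a widely used marker of glucocorticoid receptor activity, ranged from 23.8 through a median of 27.5 to 47.0 CPM in enzalutamide tumors, from 22.5 through 31.2 to 52.6 CPM in ARN-509 tumors, and from 3.39 through 12.2 to 28.8 CPM in vehicle tumors. Every drug-treated tumor lay above the vehicle median, and 6 of 13 enzalutamide and 12 of 15 ARN-509 tumors lay above the highest vehicle tumor. The log2 fold change was 1.18 ± 0.21 for enzalutamide (adjusted p = 7.82e-05 in edgeR) and 1.32 ± 0.21 for ARN-509 (adjusted p = 4.40e-06), or 2.26-fold and 2.50-fold. The difference between the drugs was -0.14, with a 95% interval of -0.55 to 0.26 and an adjusted p of 0.626. The vehicle arm was also the most spread for KLF9, with an SD of 0.98 on the log2 scale against 0.31 in each drug arm.

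ZBTB16 encodes PLZF, a zinc-finger repressor that is induced by both glucocorticoids and androgens. It ranged from 10.7 through a median of 26.7 to 50.4 CPM in enzalutamide tumors, from 9.30 through 29.5 to 49.2 CPM in ARN-509 tumors, and from 16.5 through 38.5 to 79.0 CPM in vehicle tumors. Levels lay below the vehicle median in 11 of 13 enzalutamide and 12 of 15 ARN-509 tumors. The log2 fold change was -0.53 ± 0.21 for ARN-509, with an adjusted p of 0.0470 in edgeR, and -0.55 ± 0.22 for enzalutamide, with an adjusted p of 0.0937. The 2 drug values differed by -0.03, with an interval of -0.46 to 0.41 and an adjusted p of 0.945. The ARN-509 call was lost in 22 of 43 fits that each left out 1 tumor, with adjusted p-values up to 0.0924, without any 1 of enzalutamide replicates 3, 6 and 10, or of ARN-509 replicates 1, 4, 5, 6, 7, 8, 12, 13, 14 and 15, or of vehicle replicates 1, 2, 3, 4, 5, 6, 7, 10 and 13.

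TSC22D3 encodes GILZ, a leucine-zipper protein through which glucocorticoids dampen inflammation. Its levels ranged from 10.6 through a median of 12.2 to 16.5 CPM in enzalutamide tumors, from 8.99 through 14.3 to 27.7 CPM in ARN-509 tumors, and from 5.08 through 9.93 to 15.1 CPM in vehicle tumors. All 13 enzalutamide and 14 of 15 ARN-509 tumors lay above the vehicle median. The log2 fold change was 0.52 ± 0.12 for ARN-509 (adjusted p = 0.000746 in edgeR), which was 1.44-fold. It was 0.33 ± 0.12 for enzalutamide with an adjusted p of 0.0638, and the drugs differed by -0.19, with an interval of -0.42 to 0.05 (adjusted p = 0.219). The enzalutamide value passed the threshold without enzalutamide replicate 8, ARN-509 replicate 11, vehicle replicate 2 or vehicle replicate 11, where adjusted p reached 0.0262 at the lowest.

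SCNN1A, the alpha subunit of the epithelial sodium channel, had the largest difference of the 8 genes under enzalutamide. It ranged from 3.24 through a median of 11.3 to 53.8 CPM in enzalutamide tumors, from 1.68 through 6.68 to 12.5 CPM in ARN-509 tumors, and from 0.177 through 1.54 to 13.5 CPM in vehicle tumors. All 28 drug-treated tumors lay above the vehicle median, but only 3 enzalutamide tumors lay above the highest vehicle tumor. Vehicle values were low in counts, with 1 to 92 reads per tumor and a median of 8. The log2 fold change was 2.22 ± 0.43 for enzalutamide (adjusted p = 0.000319 in edgeR) and 1.16 ± 0.44 for ARN-509 (adjusted p = 0.0395), or 4.65-fold and 2.23-fold. In limma with quality weights the ARN-509 value was 1.99 (adjusted p = 0.000797). SCNN1A was also the 1 gene of the 8 that differed between the drugs, at 1.06 ± 0.39 on the log2 scale with an adjusted p of 0.0416. That call depended on single tumors. Without enzalutamide replicate 5, which held 53.8 CPM, it was 0.67, and the call was lost in 15 of 43 fits that each left out 1 tumor, with adjusted p-values up to 0.183 (without any 1 of enzalutamide replicates 1, 5, 6, 7 and 11, or of ARN-509 replicates 1, 2, 4, 6, 7, 8, 9, 12, 13 and 14). It was also lost in DESeq2 (1.05, adjusted p = 0.0597) and with the trend of counts with GC content and length removed (0.96, adjusted p = 0.105). The ARN-509 call was lost in 17 of those fits, with adjusted p-values up to 0.0725 (without any 1 of ARN-509 replicates 1, 3, 10, 11, 14 and 15, or of vehicle replicates 1, 2, 3, 4, 5, 6, 7, 8, 9, 12 and 15), and the enzalutamide call in 0, with adjusted p-values of at most 0.00171.

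SGK1 is the serum- and glucocorticoid-induced kinase that keeps the sodium channel at the membrane by marking the ubiquitin ligase NEDD4L. Its levels were low, at 0.463 through a median of 1.46 to 3.70 CPM in enzalutamide tumors, 0.683 through 1.65 to 4.08 CPM in ARN-509 tumors and 0.50 through 1.60 to 6.01 CPM in vehicle tumors, which were 3 to 71 reads per tumor. The log2 fold change was -0.10 ± 0.30 for enzalutamide and -0.06 ± 0.29 for ARN-509, with adjusted p-values of 0.881 and 0.886 in edgeR. At this depth the 95% intervals were wide, at -0.70 to 0.50 for enzalutamide and -0.64 to 0.52 for ARN-509. Changes within these bounds were not excluded. The channel gene and its kinase thus did not share a call.

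PER1, a repressor of the circadian clock with known glucocorticoid response elements, ranged from 16.7 through a median of 25.4 to 34.3 CPM in enzalutamide tumors, from 13.7 through 21.7 to 36.4 CPM in ARN-509 tumors and from 15.3 through 23.6 to 35.3 CPM in vehicle tumors. Its log2 fold change was 0.08 ± 0.13 for enzalutamide (interval -0.18 to 0.34) and -0.10 ± 0.13 for ARN-509 (interval -0.35 to 0.16), with adjusted p-values of 0.753 and 0.578 in edgeR. DUSP1, the phosphatase that switches off MAP kinases and a classic anti-inflammatory target of the receptor, ranged from 13.1 through a median of 16.5 to 21.1 CPM in enzalutamide tumors, from 11.7 through 16.1 to 21.8 CPM in ARN-509 tumors and from 9.80 through 14.1 to 26.6 CPM in vehicle tumors. The 3 arms overlapped across nearly their whole range for both genes. DUSP1 had log2 fold changes of 0.05 ± 0.12 for enzalutamide and 0.06 ± 0.12 for ARN-509, with intervals of -0.19 to 0.30 and -0.18 to 0.30 and adjusted p-values of 0.847 and 0.741. In limma with quality weights the ARN-509 value of DUSP1 was 0.26 with an adjusted p of 0.04. Vehicle replicate 12 held the highest NR3C1, SGK1 and DUSP1 levels of its arm together with the lowest ZBTB16 level.

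Whether the target genes followed the receptor between tumors was tested by the slope of each gene on the tumor's own NR3C1 log2 CPM, within arms. At an adjusted p under 0.05, 2 of the 7 genes had a slope above 0 and 0 had one below, against 14.1% and 15.2% of all genes. At an unadjusted p under 0.05 there were 3 above and 0 below, as in limma with adjustment. KLF9 gained 0.63 ± 0.12 log2 units per log2 unit of NR3C1 (adjusted p = 0.000357 in edgeR), and SCNN1A gained 1.31 ± 0.30 (adjusted p = 0.00144). ZBTB16 had a slope of 0.34 ± 0.14 with an adjusted p of 0.0702. The slopes of TSC22D3, SGK1, PER1 and DUSP1 were 0.02, 0.00, 0.09 and -0.11, with adjusted p-values from 0.297 to 0.9998.

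Neither KLF9 nor SCNN1A had a slope past the threshold without the vehicle arm, in which NR3C1 varied most, while ZBTB16 did. Over the 28 drug-treated tumors alone, the slope was 0.23 for KLF9 (adjusted p = 0.297 in edgeR) and 1.14 for SCNN1A (adjusted p = 0.107), and ZBTB16 had a slope of 0.90 with an adjusted p of 0.0328. The other 4 slopes ran from -0.08 for SGK1 to 0.34 for PER1, with adjusted p-values from 0.152 to 0.913. Without vehicle replicates 8 and 10, KLF9 passed the threshold and SCNN1A did not (1.13, adjusted p = 0.0735), and 290 genes in all were called against 3971 with all 43 tumors. A test of whether the slopes differ between arms called 0 of 13519 genes in edgeR after adjustment and 823 (6.09%) at an unadjusted p under 0.05. For KLF9 the slopes were 0.30 in enzalutamide, 0.21 in ARN-509 and 0.89 in vehicle tumors. Their difference had an unadjusted p of 0.0302 in edgeR and an adjusted p of 0.787.

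**Figure D3:**
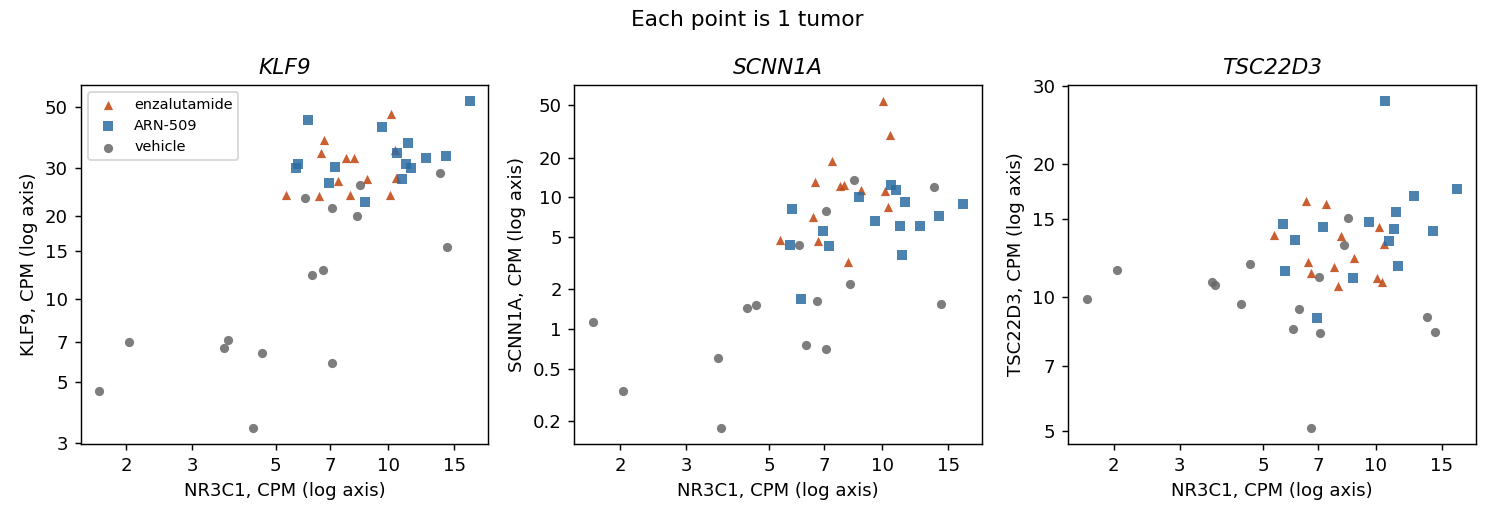
KLF9, SCNN1A and TSC22D3 (vertical axes) against NR3C1 (horizontal axes) in each of 43 tumors, in CPM on log axes. KLF9 climbed with NR3C1 among the vehicle tumors (r = 0.718; 0.267 under enzalutamide and 0.297 under ARN-509), and TSC22D3 showed no trend over all tumors within arms (r = 0.00).

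The same relations were given as correlations of log2 CPM, 28 in all (7 genes in 3 arms and over all 43 tumors after removing the arm means), with permutation p-values and adjustment over the 28. KLF9 and NR3C1 had a Pearson r of 0.718 in the 15 vehicle tumors (permutation p = 0.00221, adjusted 0.0206) and a Spearman rho of 0.675 (permutation p = 0.00686, adjusted 0.0480). Without the 2 tumors farthest from the median NR3C1 that r was 0.695, with an adjusted permutation p of 0.0805. Vehicle replicates 1 to 9 and 10 to 15 were set apart after the values were seen. KLF9 ran from 3.39 to 20.1 CPM in the former and from 12.8 to 28.8 CPM in the latter. SCNN1A ran from 0.177 to 2.19 CPM and from 1.55 to 13.5 CPM in the same order. The highest NR3C1 levels were 8.22 and 14.4 CPM. The permutations and the main slope fit took no account of replicate order, whose part in the relations was not tested. In enzalutamide and ARN-509 tumors KLF9 had r of 0.267 and 0.297 (permutation p = 0.377 and 0.285, adjusted 0.587 and 0.531). Over all 43 tumors r was 0.612 for KLF9 (rho 0.435) and 0.544 for SCNN1A (rho 0.453), with permutation p-values of 0.00075 and 0.00125 for r, and each with an adjusted permutation p of 0.0175 for r and 0.0480 for rho. Without the 2 farthest tumors these were 0.542 and 0.527, each with an adjusted permutation p of 0.0199. Within single arms SCNN1A had r values of 0.539, 0.456 and 0.596 in enzalutamide, ARN-509 and vehicle tumors, none past the adjusted threshold, while its rho in vehicle tumors was 0.686 (permutation p = 0.00614, adjusted 0.0480).

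ZBTB16 had its correlation with NR3C1 in the ARN-509 arm, with r of 0.704 (permutation p = 0.00406, adjusted 0.0284) and rho of 0.614 (permutation p = 0.0175, adjusted 0.0979). Without the 2 farthest tumors r was 0.625 with an adjusted permutation p of 0.123. In enzalutamide and vehicle tumors the r of ZBTB16 was 0.382 and 0.01. The difference in its slope between arms had an unadjusted p of 0.0458 in edgeR and an adjusted p of 0.801. Beyond these 4 relations, none had an adjusted permutation p under 0.05 for r.

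Correlation with NR3C1 was common over all 43 tumors together, which is the scale on which these values stand. It was far less common without vehicle replicates 8 and 10, where the slope test called 290 genes in place of 3971. The profiles of these 2 tumors had the lowest correlations with their own arm among the 43, at 0.890 and 0.916. The range and ranks below were taken with both. Over all 13519 other genes the central 90% of r values ran from -0.509 to 0.502, and 1.19% of genes had a higher r than KLF9 and 2.86% a higher r than SCNN1A. The 5 genes most like NR3C1 over the 43 tumors were GRB10 (r = 0.875), an adaptor that restrains insulin receptor signalling, the transcription factor TFCP2L1 (0.773), the ubiquitin ligase RNF19A (0.757), the transcription factor ELF1 (0.753) and DENND3 (0.751). The 5 least like it were CCT8 (-0.745), a chaperonin subunit, XRCC6 (-0.734), which repairs DNA breaks, the splicing factor SNRPA (-0.727), and the mitochondrial genes ATP5A1 (-0.720) and NDUFA9 (-0.711). GRB10 was itself higher under both drugs, at log2 0.55 for enzalutamide (adjusted p = 0.000937 in edgeR) and 0.69 for ARN-509 (adjusted p = 1.42e-05).

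**Figure D4:**
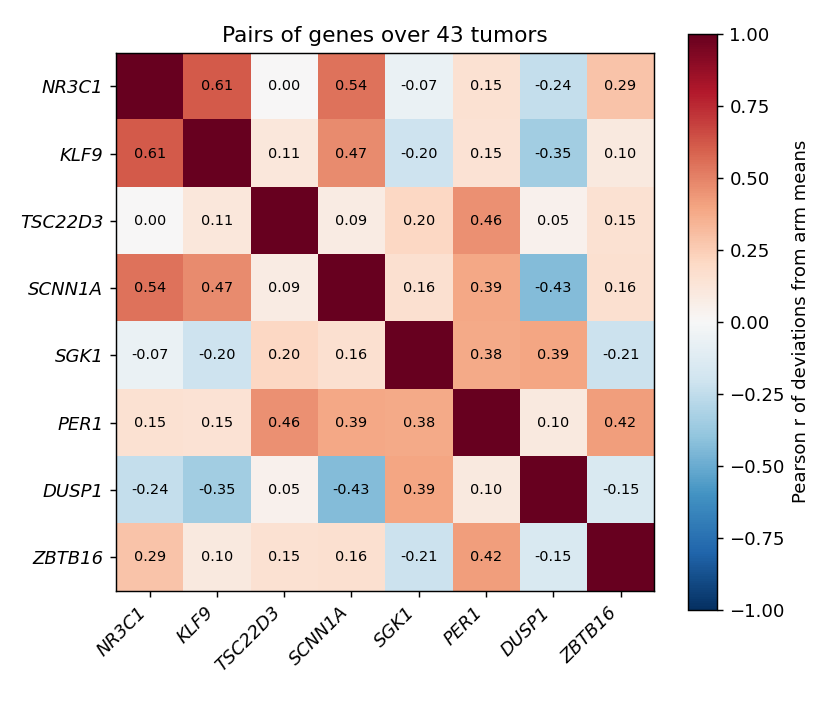
Pearson r between each pair of the 8 genes over 43 tumors, from log2 CPM after removing arm means (color and number). NR3C1 with KLF9 (0.61) and with SCNN1A (0.54) are the highest pairs, and SCNN1A with DUSP1 (-0.43) is the lowest.

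The 8 genes did not vary as 1 block. NR3C1 had r of 0.61 with KLF9 and 0.54 with SCNN1A, and KLF9 had r of 0.47 with SCNN1A, over the same 43 libraries. PER1 had positive r with TSC22D3 (0.46), ZBTB16 (0.42), SCNN1A (0.39) and SGK1 (0.38), as had SGK1 with DUSP1 (0.39). DUSP1 had negative r with SCNN1A (-0.43) and KLF9 (-0.35). The pairs without NR3C1 were not tested, and no background of r was taken for them. All of those given here lay within -0.509 to 0.502, the central range of r with NR3C1 over all other genes. They are therefore not read as groups of genes. PER1 and SGK1 also correlated with each library's trend of counts with GC content, at r of 0.61 and 0.42, whose part in these pairs was not tested. For NR3C1, KLF9 and SCNN1A that r was -0.22, -0.23 and 0.14, and with the trend removed the slopes on NR3C1 were 0.59 for KLF9 and 1.53 for SCNN1A, both past the threshold.

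A wider list of glucocorticoid-induced genes was called under ARN-509 at about the share of all genes. Of 33 other glucocorticoid-induced genes 26 were tested, and 0 were higher and 4 lower under enzalutamide, with 4 and 5 at an unadjusted p under 0.05, 0 and 4 in DESeq2, and 5 and 4 in limma, against 5.10% and 5.67% of all genes. Under ARN-509 4 were higher and 4 lower, against 14.7% and 16.1% of all genes. The list medians on the log2 scale were 0.06 for enzalutamide and 0.03 for ARN-509 beside 0.00 and 0.00 for all genes. FKBP5, the cochaperone that lowers the receptor's affinity for hormone and is induced by androgens as well, was 228 ± 55.5 CPM in enzalutamide, 205 ± 34.0 CPM in ARN-509 and 309 ± 67.5 CPM in vehicle tumors (log2 -0.44 and -0.59, adjusted p = 0.00574 and 5.00e-05 in edgeR). MAOA, a monoamine oxidase induced by both hormones, fell too, by 1.04 under enzalutamide and by 0.90 under ARN-509 on the log2 scale (adjusted p = 1.89e-06 and 5.58e-06). The thiamine transporter SLC19A2 fell by 0.42 under enzalutamide, and CITED2, a transcriptional coregulator, rose by 0.28 under ARN-509. STOM, named after its values were seen, was the fourth to fall under enzalutamide, by 0.84 (adjusted p = 0.0221). On NR3C1 7 of the 26 had a slope above 0, with TFCP2L1 at 0.85 the steepest of those called, and 1 (CDKN1C) below, both named after their values were seen, against 14.1% and 15.2% of all genes. With the GC trend removed 3 were above and 0 below.

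Related receptors and the chaperones that hold the receptor ready were read as a list of 11 tested genes out of 14. Under enzalutamide 1 was higher and 1 lower, against 5.10% and 5.67% of all genes, and under ARN-509 5 were lower, against 16.1%, with list medians of -0.15 and -0.16 on the log2 scale. The chaperone HSPA4 was the 1 that was lower under enzalutamide (log2 -0.27, adjusted p = 0.0306 in edgeR). The cochaperones FKBP4 (log2 -0.40), STIP1 (-0.31) and BAG1 (-0.23) were lower under ARN-509, with adjusted p-values of 0.000769, 0.00403 and 0.0225 in edgeR. On NR3C1 the slopes of 8 chaperone genes were below 0, with STIP1 at -0.23 and FKBP4 at -0.24, and 1 receptor gene was above 0, against the 15.2% and 14.1% of all genes called. That gene was NR3C2, the mineralocorticoid receptor, which also binds cortisol. NR3C2, named after its values were seen, had a slope of 0.80 on NR3C1 (adjusted p = 2.85e-05) and was 0.70 log2 units higher under enzalutamide (adjusted p = 0.0387). Of 7 genes of glucocorticoid metabolism 3 were tested, and H6PD, which feeds the enzyme that regenerates cortisol, was 165 ± 20.4 CPM in enzalutamide, 140 ± 16.7 CPM in ARN-509 and 142 ± 16.1 CPM in vehicle tumors (log2 0.22 for enzalutamide against vehicle, adjusted p = 0.0225).

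Of 11 genes read from the SGK1 and sodium channel axis 10 were tested. NEDD4L, the ligase that removes the channel, was higher under enzalutamide (log2 0.40, adjusted p = 0.00386 in edgeR) and ARN-509 (0.57, adjusted p = 1.24e-05), and was the 1 gene of the list called in either comparison with vehicle in edgeR, where 5.10% and 14.7% of all genes were higher. For enzalutamide DESeq2 called 1 gene higher and 1 lower and limma 2 and 1, while under ARN-509 both called 1 and 0. It also had a slope of 0.29 on NR3C1 (adjusted p = 0.000329). Between the drugs the kinase WNK1 had a log2 value of -0.29 for enzalutamide against ARN-509 (adjusted p = 0.0351), and its slope on NR3C1 was 0.20 (adjusted p = 0.0264).

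Of 16 circadian clock genes 15 were tested, and 0 passed under enzalutamide in edgeR or DESeq2, with 2 higher and 0 lower at an unadjusted p and in limma. Under ARN-509 4 were higher and 0 lower, against 14.7% and 16.1% of all genes, among them BHLHE41 (log2 0.85, adjusted p = 0.00314), NPAS2 (0.77, adjusted p = 0.00414) and NR1D2 (0.33, adjusted p = 0.0207). CLOCK was 0.82 log2 units lower under enzalutamide than under ARN-509 (adjusted p = 0.0118). Of 19 immediate early genes 17 were tested, with 1 higher and 1 lower under enzalutamide (5.10% and 5.67% of all genes) and 2 higher and 2 lower under ARN-509 (14.7% and 16.1%), which is near or below the share of all genes. BTG2, an antiproliferative gene, was higher under both drugs (log2 0.48 and 0.36), and NR4A1, an orphan receptor, was lower under both (-0.28 and -0.52), in the same arms in which DUSP1 did not pass. KLF6 rose by 0.32 and IER2 fell by 0.31 under ARN-509.

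For reference, 9 androgen-induced genes were read beside the set. They were chosen with earlier results of these data known, so they are not an independent check of the drugs. Of these 4 were lower under enzalutamide and 6 under ARN-509, against 5.67% and 16.1% of all genes. STEAP4, a metalloreductase, was 3.42 ± 2.27 CPM in enzalutamide, 4.62 ± 4.22 CPM in ARN-509 and 63.3 ± 41.8 CPM in vehicle tumors, and the channel TRPM8 was 83.1 ± 45.9, 119 ± 49.9 and 484 ± 204 CPM. KLK2, a kallikrein protease of the prostate, was 5006 ± 680.0 CPM in enzalutamide, 4208 ± 426 CPM in ARN-509 and 4993 ± 815 CPM in vehicle tumors, and was lower under ARN-509 (log2 -0.25, adjusted p = 0.0106 in edgeR).

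Summed markers of other cell types were set beside NR3C1. Over the 43 tumors NR3C1 had an r of -0.03 with fibroblast, -0.23 with endothelial, -0.23 with leukocyte and -0.13 with adipocyte markers. The summed fibroblast markers ran from 21.1 to 32.8 CPM in enzalutamide, 17.8 to 39.4 CPM in ARN-509 and 21.7 to 43.2 CPM in vehicle tumors. The summed endothelial markers ran from 0.905 to 3.39, 0.626 to 2.79 and 2.55 to 7.47 CPM in the same arms. CDH5, VWF, KDR, TEK and EMCN each had a median under 0.5 CPM over all 43 tumors together. Host cells of these types are of mouse, so these sums over human gene symbols do not measure them. The part of these cell types in the results was not tested.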

How the data were processed

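Raw read counts per gene symbol were deposited by the authors in 1 table with 1 column per tumor. The submitters' processing notes name the tools HTSeq 0.6.1, Picard 1.77, TopHat2 2.1.0 and bcl2fastq 1.8.4 and, as genome build, hg19. How mouse reads were handled, the strand setting and the annotation are not stated there, so counts of conserved genes may hold host reads. Libraries were made with Illumina TruSeq RNA v2, per the labels' protocols. No paired columns held the same values (lowest chi-square per degree of freedom 4.66, 3.92 and 3.42 in enzalutamide, ARN-509 and vehicle), so each was counted once.

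The 8 genes, the lists and the alternatives were chosen with earlier results of these data known. Counts of 43 tumors (enzalutamide replicate 4 left out) were filtered by filterByExpr, scaled by TMM. A fit in edgeR 4.0.16 under R 4.3.3 used a robust quasi-likelihood model of arm. P-values were adjusted by Benjamini-Hochberg over 13520 genes, with a threshold of 0.05, and unnamed adjusted p-values are from this test. CPM values use TMM-scaled library sizes, and log2 CPM uses a prior count of 2. The SE is the absolute log2 value over the square root of F, and intervals are 95%. The slope fit adds NR3C1 log2 CPM, centred within arms, over 13519 genes. The script was tested on simulated data. Correlations used 100000 permutations, within arms where tumors of 3 arms were pooled. Some genes of the lists are not reported here and enter no list count. From each list, up to 4 tested genes with the smallest p were named, and the 5 genes of highest and lowest r with NR3C1 among the 12796 whose mean log2 CPM reached 1. GC content and length came from GENCODE release 29 (GRCh38) by symbol, for 95.7% of tested genes and all 8 genes of the set. Alternatives were other scalings and filters, DESeq2 1.42.0, limma 3.58.1 voom with quality weights, a replicate block, all 44 libraries and leaving out each tumor. Fits without vehicle replicates 8 and 10, with the 28 drug-treated tumors, and of slopes by arm were added after the data were seen. Precision is limited by counts as low as 1 read (SCNN1A) and 3 reads (SGK1) per tumor. The Poisson intervals given for enzalutamide replicate 4 cover counting error only.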

Additional observations from a re-analysis of the deposited data

Results flagged for a closer look

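Enzalutamide replicate 4 was left out of the main comparisons and entered only the alternative fit with all 44 libraries. It held 80142 counts and was flagged for 5 of the 8 genes. For these, the lower bound of the counting interval stood above their highest vehicle level. On the total of all its counts this library held 199.6 CPM of NR3C1 (16 reads, exact Poisson 95% interval 114 to 324), against a highest vehicle level of 14.8 CPM. KLF9 was at 898.4 CPM (72 reads, 703 to 1131), against at most 29.2 CPM in vehicle tumors, and SGK1 was at 249.6 CPM (20 reads, 152 to 385), against at most 6.22 CPM. PER1 stood at 311.9 CPM (25 reads, 202 to 460.5), against at most 33.8 CPM, and DUSP1 at 124.8 CPM (10 reads, 59.8 to 229), against at most 27.5 CPM. SCNN1A had 0 reads (interval 0 to 46.0 CPM). TSC22D3 was at 37.4 CPM (3 reads, 7.72 to 109), against at most 14.4 CPM in vehicle tumors, so its interval reached below that level, and ZBTB16 had 1 read. Intervals cover counting error only, and the correlation of this library with its arm was 0.448. How many of all genes met the same rule in this library was not counted. The 5 genes can therefore not be read as particular to this set.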

How the results depend on the processing

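No result changed direction past the threshold. Of the values of single genes under other settings, 338 stayed on the reported side of the threshold, 11 newly passed it and 16 no longer did; in fits without 1 tumor these were 1269, 10 and 54. The number of the 8 genes called was, for enzalutamide against vehicle, 4 in place of 2 with the replicate block and in limma (2 to 4 without 1 tumor). For ARN-509 against vehicle it was 3 in place of 5 with all 44 libraries and without the filter (3 to 5 without 1 tumor). Between the drugs it was 0 in place of 1 with all 44 libraries, library totals, no filter, the replicate block, DESeq2 and removal of the GC and length trend (0 to 1 without 1 tumor). For the slope on NR3C1 it was 4 in place of 2 with all 44 libraries, and 1 with the replicate block, without vehicle replicates 8 and 10 and over the 28 drug-treated tumors (2 to 4 without 1 tumor). NR3C1 under ARN-509 had an adjusted p of 0.0875 with all 44 libraries.

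Counts over all genes were 2547 in limma for enzalutamide against vehicle in place of 1455 (1145 to 1794 without 1 tumor) and 4166 for ARN-509 against vehicle (3261 to 5045 without 1 tumor). Between the drugs they were 5707 in limma and 1216 after that removal, in place of 3623 (2680 to 4269). For the slope on NR3C1, 3971 became 331 with the replicate block, 1639 with the trend removed, 290 without vehicle replicates 8 and 10 and 716 over the 28 drug-treated tumors (1459 without vehicle replicate 8 to 5445 without vehicle replicate 12). With library totals the higher and lower calls were 838 and 600 for enzalutamide, 2713 and 1466 for ARN-509, 1202 and 2263 between the drugs, and 2948 and 1407 for the slope. The cause was not tested.

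The replicate numbers do not pair the tumors: same-numbered tumors correlated above 0.1 in 3 of 13 pairs of enzalutamide and vehicle, 5 of 15 of ARN-509 and vehicle and 4 of 13 of the drugs, and 1 of 13, 3 of 15 and 0 of 13 tumors matched their own number best. With the replicate block the slope of KLF9 on NR3C1 was 0.50 (adjusted p = 0.0688). The DUSP1 slope passed without vehicle replicate 12 (-0.25, adjusted p = 0.0107). With all 44 libraries, and so with enzalutamide replicate 4 added, SGK1 (0.99) and PER1 (0.41) had slopes past the threshold. That of SCNN1A was then 0.83 (adjusted p = 0.00714). Low counts limit SGK1 and, in vehicle tumors, SCNN1A.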
